A study of Homo sapiens and Mus musculus with 8 samples.

Results

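Respiratory chain genes of B16N mouse melanoma cells were taken as all genes of the authors' deposited B16N tables whose symbol starts with mt-, Nduf, Sdh, Uqcr, Cox4 to Cox8 or Atp5. The rule found 110 of 15966 genes: 15 mitochondrially encoded (13 protein-coding genes and the rRNA genes mt-Rnr1 and mt-Rnr2) and 95 nuclear. By symbol, 55 belonged to complex I, 7 to complex II, 8 to complex III, 19 to complex IV and 19 to complex V, with assembly factors of the same name included. RNA-seq was done on total RNA of 4 B16N samples, and the title of the series sets the study around Ca2+ signalling in melanoma. The treated samples were wild-type B16N exposed to UV for 2 weeks, wild-type B16N exposed to UV for 5 weeks, and a clone that overexpresses Orai1, the pore subunit of store-operated Ca2+ channels. The clone came from cells transfected with CFP-tagged Orai1, selected with G418 and sorted, and is a single clone. Each was compared with the same untreated wild-type B16N sample. The control and the clone were labelled day 0 and the UV samples by week, so UV exposure and time in culture cannot be told apart, and neither can Orai1 and the transfection, selection and cloning.

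The respiratory chain sits in the inner mitochondrial membrane. Complex I takes electrons from NADH and complex II from succinate, complex III passes them from ubiquinol to cytochrome c, and complex IV passes them to oxygen, while complex V uses the resulting proton gradient to make ATP. Complexes I, III, IV and V combine subunits encoded in mitochondrial DNA, which is transcribed as long RNAs and cut into single messages, with subunits encoded in the nucleus, whereas complex II is wholly nuclear. Pigment cells, from which melanoma arises, are known to raise mitochondrial genes through the coactivator Ppargc1a under the lineage factor Mitf.

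The authors' deposited tables give a log2 fold change, a test statistic and a p-value for each gene, and no level per sample. Changes are given here as log2 of treated over control, with the deposited sign turned, so a positive change means higher in the treated sample, and with the standard error (SE) obtained from the test statistic. A change was called at a Benjamini-Hochberg adjusted p under 0.05 over all rows of its table. The labels list 1 sample per group and do not say how many libraries stand behind the p-values, so a call compares these samples and may not carry over to the conditions. Of the 12 pigment-cell markers, 11 or 12 had a row in each table, while 3 or 4 of 10 leukocyte markers, 1 or 2 of 7 fibroblast markers and 1 or 2 of 5 markers each of endothelium and keratinocytes had a row. Orai1 was not analysed here.

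Many rows of the tables repeat the exact change and statistic of another symbol, and such rows were counted in no group. Of the members, 93 had values of their own after 2 weeks of UV, 93 after 5 weeks and 94 in the clone. Another 14, 15 and 13 members shared their values with another symbol at 2 weeks, at 5 weeks and in the clone, and 3, 2 and 3 had no row. Across the series, 93 members had their own values in all 3 tables, 39 of these were called in at least 1 comparison, 54 in none, and 0 in all 3. The same overlap was not counted over all rows, so these counts are not read as a trait of the members.

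After 2 weeks of UV, all called rises were of nuclear members. Those of complex I were the most numerous, but complex I also had the most nuclear members with their own values. Its rises were 10 of 40, against 4 of 9 in complex IV and 2 of 7 in complex III. Complex II had 1 of 7 and complex V 1 of 16. Of 93 members, 18 were called higher and 3 lower, a share of 22.6%. Over all rows with their own values, 8.99% were called, 3.71% higher and 5.28% lower. The median change of the members was 0.16, against 0.02 over all such rows. Nuclear members had 18 higher and 2 lower calls among 79, with 63 above 0 and a median of 0.26. Of all rows with their own values, 52.2% were above 0. Mitochondrially encoded protein-coding genes had 0 calls among 13 by the same test, with 4 above 0 and a median of -0.08, and 1 of them had an unadjusted p under 0.05. Most changes were small: with a 2-fold minimum 1 member was called, and 0.394% of all rows.

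Among the nuclear complex I members, 10 of 40 rose at 2 weeks. The largest were Ndufb8, an accessory subunit of the membrane arm (log2 change 0.84, SE 0.21, adjusted p = 0.00146 from the authors' deposited table), and Ndufa2, an accessory subunit of the matrix arm (0.76, SE 0.16, adjusted p = 1.65e-04). Ndufb4c, whose symbol marks it as a further copy of Ndufb4, rose by 0.66 (SE 0.093, adjusted p = 3.46e-10), and Ndufv2, a core subunit with an iron-sulfur cluster, by 0.65 (SE 0.21, adjusted p = 0.0241) by the authors' deposited table. The other 6, Ndufb11, Ndufaf8, Ndufa7, Ndufb9, Ndufs6b and Ndufs5-ps, lay between 0.54 and 0.31. The 6 core subunits with their own values were all above 0 at 2 weeks, with a median of 0.29, while the 10 assembly factors of complexes I and II had a median of 0.06 and 1 call, Ndufaf8.

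In complex III, the small subunits Uqcrq (0.89, SE 0.23, adjusted p = 0.00321) and Uqcr10 (0.83, SE 0.23, adjusted p = 0.00701) rose at 2 weeks in the authors' deposited table. Uqcrfs1, the Rieske iron-sulfur protein, fell by 0.24 there (SE 0.080, adjusted p = 0.0365 from the authors' deposited table). That call was lost when the median of precisely measured rows was set to 0. Of the complex IV subunits, Cox7b (0.55, SE 0.089, adjusted p = 1.42e-07), Cox4i1, the widely expressed form of subunit IV (0.38, SE 0.089, adjusted p = 5.85e-04), Cox8a (0.37) and the supercomplex factor Cox7a2l (0.32) rose in the authors' deposited table, 4 of 9 nuclear members. Sdhb, the iron-sulfur subunit of complex II, rose by 0.28 (SE 0.086, adjusted p = 0.0189 per the authors' deposited table), the only call among 7 complex II members. In complex V, Atp5l, subunit g of the membrane part, had the largest rise among the members (1.18, SE 0.24, adjusted p = 5.10e-05), 2.27-fold, while Atp5g3, a gene for the proton-carrying c ring, fell by 0.42 (SE 0.12, adjusted p = 0.0149) by the authors' deposited table.

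The large mitochondrial rRNA mt-Rnr2 fell by 0.88 at 2 weeks (SE 0.16, adjusted p = 1.67e-06 per the authors' deposited table). Its change was -0.54 at 5 weeks (SE 0.59) and -0.94 in the clone (SE 0.54), neither called. Among the mitochondrial messages at 2 weeks, mt-Atp8 had the lowest change (-0.45, SE 0.16, adjusted p = 0.057 per the authors' deposited table) and mt-Nd5 the highest (0.21, SE 0.18). Abundance of rRNA depends on how a library was made, and the labels name no method of rRNA removal or poly(A) selection.

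**Figure D1:**
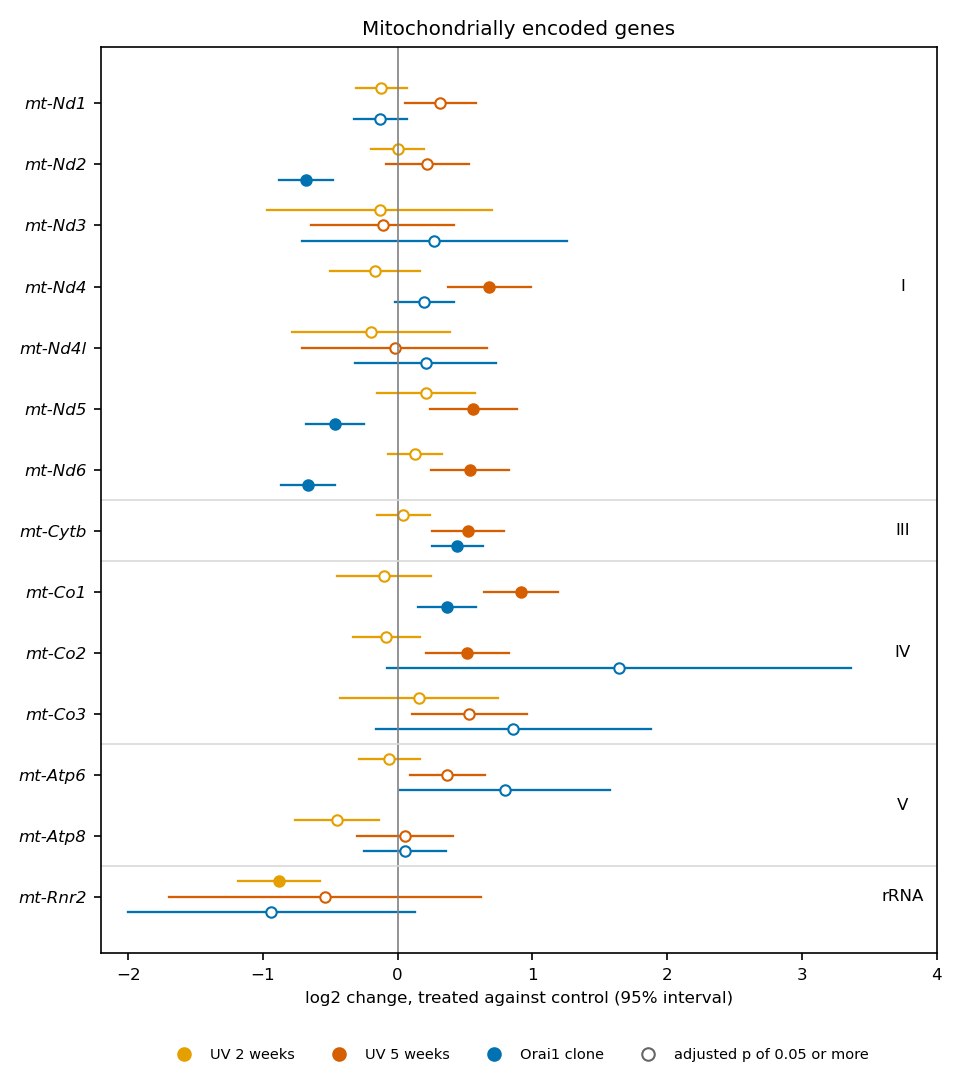
Log2 change of each mitochondrially encoded gene with its own values, treated against control, with 95% intervals from the SE. Filled points have an adjusted p under 0.05 and the complex is given at the right. The 6 filled points at 5 weeks all lie above 0, while 3 of the 5 in the clone, mt-Nd2, mt-Nd5 and mt-Nd6, lie below it.

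After 5 weeks of UV, the calls lay mostly on mitochondrially encoded messages. Of 93 members, 10 were called higher and 0 lower, a share of 10.8%, against 5.51% of all rows with their own values (3.53% higher and 1.98% lower). At an unadjusted p under 0.05, 25 members were higher and 1 lower. The share of all rows at this threshold was not counted, so these 2 counts have no background to be read against. Mitochondrially encoded protein-coding genes rose in 6 of 13 cases, with 11 above 0 and a median of 0.52. Nuclear members rose in 4 of 79 cases (5.06%, against 3.53% of all rows called higher), with 62 above 0 and a median of 0.19. The 40 nuclear members of complex I had 2 calls at 5 weeks, with 35 above 0 and a median of 0.34. Their median SE was 0.21, against 0.18 at 2 weeks, where 33 were above 0 with a median of 0.29. The 6 core subunits were all above 0 at 5 weeks, with a median of 0.40 and 0 calls, 3 of them with an unadjusted p under 0.05. The median of all rows with their own values was 0.0069, and 50.7% of them were above 0. No member was both called and at least 2-fold changed at 5 weeks, whereas 2.04% of all rows were.

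The largest change at 5 weeks was that of mt-Co1, the catalytic subunit of complex IV (0.92, SE 0.14, adjusted p = 1.81e-08 from the authors' deposited table). mt-Co2, which takes electrons from cytochrome c, rose by 0.52 (SE 0.16, adjusted p = 0.0275 per the authors' deposited table), and mt-Co3 had 0.53 with a wider error (SE 0.22) and no call. The membrane-arm subunits of complex I that rose were mt-Nd4 (0.68, SE 0.16, adjusted p = 0.00100), mt-Nd5 (0.56, SE 0.17, adjusted p = 0.0197) and mt-Nd6 (0.53, SE 0.15, adjusted p = 0.0104), by the authors' deposited table. mt-Nd1 (0.32) and mt-Nd2 (0.22) were above 0, and mt-Nd3 (-0.11) and mt-Nd4l (-0.02) were not, all 4 without a call. mt-Cytb, cytochrome b of complex III, rose by 0.52 (SE 0.14, adjusted p = 0.00526 per the authors' deposited table). For complex V, mt-Atp6 had 0.37 (SE 0.14) and mt-Atp8 0.05 (SE 0.18), neither called.

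The nuclear members that rose at 5 weeks in the authors' deposited table were the complex III subunits Uqcrq (0.80, SE 0.18, adjusted p = 6.34e-04) and Uqcr10 (0.56, SE 0.17, adjusted p = 0.0257), both also higher at 2 weeks, and the complex I accessory subunits Ndufa12 (0.52, SE 0.17, adjusted p = 0.0462) and Ndufa13 (0.49, SE 0.16, adjusted p = 0.0428). Complex II (7 members) and complex V (18 members) had 0 calls by this test, and 1 and 2 of them had an unadjusted p under 0.05. Complex IV had calls on mt-Co1 and mt-Co2, and 0 among its 9 nuclear members, of which 1 had an unadjusted p under 0.05. The median of the mitochondrial complex IV genes was 0.53 and that of the nuclear ones 0.07. The 4 nuclear complex IV subunits that rose at 2 weeks had changes of 0.07 (Cox4i1), -0.03 (Cox7a2l), -0.020 (Cox7b) and 0.11 (Cox8a) at 5 weeks. Lyz2, the only leukocyte marker with its own values, was higher at 5 weeks (3.47, adjusted p = 6.84e-05) and in the clone (2.78, adjusted p = 1.77e-04), and had 0.38 at 2 weeks in the authors' deposited tables. Its part in these results was not tested.

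**Figure D2:**
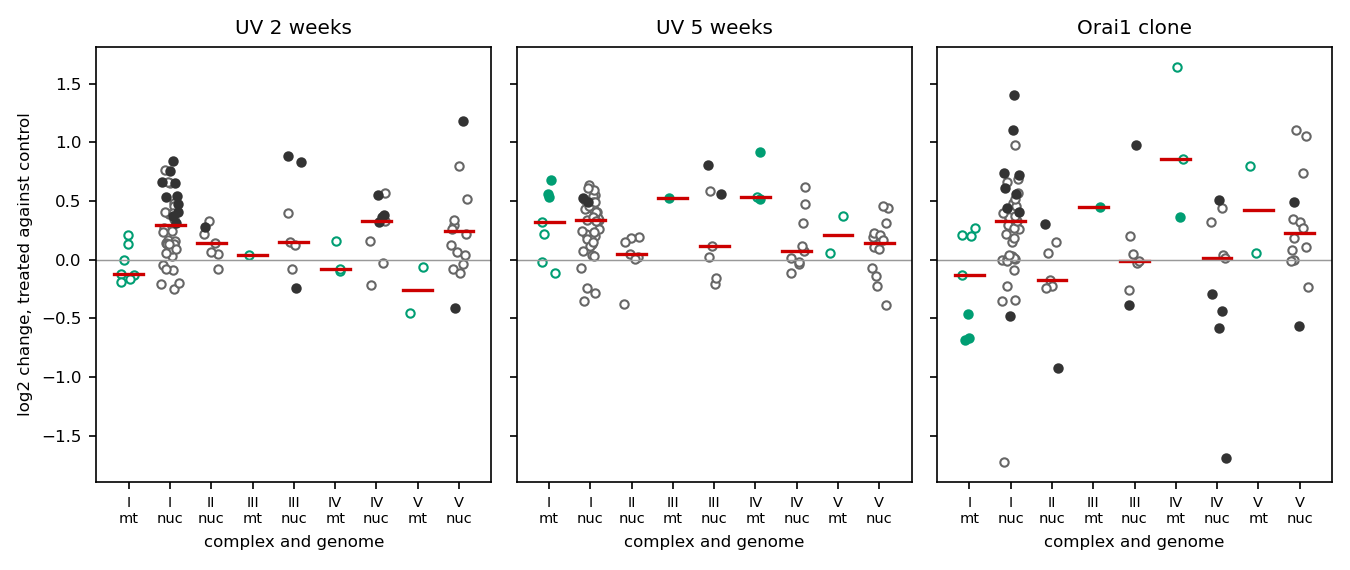
Log2 change of every member with its own values and an SE up to 1, treated against control, by complex and genome (mt, mitochondrial, in green; nuc, nuclear, in grey or black), for each treated sample. Filled points have an adjusted p under 0.05 and red lines are medians over all members with their own values. The mitochondrial medians lie at or below 0.04 at 2 weeks and above 0 at 5 weeks, and in the clone that of complex I is -0.13 and that of complex IV 0.86.

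In the Orai1 clone, members moved in both directions and as often as other genes did. Of 94 members, 14 were called higher and 11 lower, 26.6% against 25.9% of all rows with their own values (12.0% higher and 13.9% lower), so the number of calls was near the background. The members' median was 0.20 and that of all rows 0.03. Nuclear members had 12 higher and 8 lower calls among 80, and mitochondrially encoded protein-coding genes 2 higher and 3 lower among 13. With a 2-fold minimum, 3 members were called (Ndufs6, Ndufc1 and Cox7b), and 7.79% of all rows.

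Of the 41 nuclear members of complex I, extra gene copies and assembly factors included, 8 were called higher and 1 lower in the clone, a share below the 25.9% of all rows. Ndufs6, a zinc-binding accessory subunit, rose by 1.40 (SE 0.40, adjusted p = 0.00328) and the small subunit Ndufc1 by 1.11 (SE 0.30, adjusted p = 0.00193) by the authors' deposited table. Ndufa12 (0.74, SE 0.12, adjusted p = 3.06e-08) and Ndufb8 (0.72, SE 0.25, adjusted p = 0.0237) followed in the authors' deposited table, and Ndufb9, Ndufs6b, Ndufa9 and Ndufa7 lay between 0.61 and 0.41. Ndufb3, an accessory subunit of the membrane arm, fell by 0.48 (SE 0.16, adjusted p = 0.0177 per the authors' deposited table). The 6 core subunits were all above 0 in the clone too, where 52.3% of all rows with their own values were. Their median was 0.30 with 0 calls, and 2 of them had an unadjusted p under 0.05. Mitochondrially encoded complex I genes went the other way where called: mt-Nd2 fell by 0.68 (SE 0.10, adjusted p = 8.24e-10), mt-Nd6 by 0.67 (SE 0.10, adjusted p = 2.30e-09) and mt-Nd5 by 0.46 (SE 0.11, adjusted p = 2.45e-04) by the authors' deposited table. mt-Nd4 (0.20), mt-Nd4l (0.21), mt-Nd3 (0.27) and mt-Nd1 (-0.13) were not called.

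Among the members called in the clone, the steepest fall was that of Cox7b, a small complex IV subunit (-1.69, SE 0.11, adjusted p = 6.43e-48 from the authors' deposited table), to 0.309 times its control level. Ndufa1, an accessory subunit of complex I, had a change of -1.72 with a wide error (SE 0.69) and was not called. Cox7a2l (-0.59, SE 0.12, adjusted p = 2.94e-05), Cox8a (-0.44, SE 0.12, adjusted p = 0.00294) and Cox4i1 (-0.29, SE 0.11, adjusted p = 0.0307) also fell in the authors' deposited table. Cox6b1, which faces the intermembrane space, rose by 0.51 (SE 0.18, adjusted p = 0.0235 per the authors' deposited table), giving 1 higher and 4 lower calls among the 9 nuclear complex IV members. The mitochondrially encoded mt-Co1 rose by 0.37 (SE 0.11, adjusted p = 0.00684 per the authors' deposited table). mt-Co2 (1.64, SE 0.88) and mt-Co3 (0.86, SE 0.52) had larger changes without a call, and their SE at 2 weeks were 0.13 and 0.30.

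In complex III, Uqcrb, a small subunit near the quinone site, rose by 0.98 in the clone (SE 0.15, adjusted p = 7.19e-09), mt-Cytb rose by 0.44 (SE 0.098, adjusted p = 7.77e-05) and Uqcrfs1 fell by 0.38 (SE 0.092, adjusted p = 3.21e-04) by the authors' deposited table. In complex II, the flavoprotein Sdha rose by 0.30 (SE 0.11, adjusted p = 0.0238), while Sdhaf1, an assembly factor for the iron-sulfur subunit, fell by 0.92 (SE 0.14, adjusted p = 2.20e-09) by the authors' deposited table. The median of complex II in the clone was -0.17 with its assembly factors and 0.15 for its subunits alone. In complex V, Atp5d of the central stalk rose by 0.49 (SE 0.13, adjusted p = 0.00144) and Atp5g3 fell by 0.57 (SE 0.15, adjusted p = 0.00137) by the authors' deposited table. mt-Atp6 (0.79, SE 0.40) and mt-Atp8 (0.05, SE 0.15) were not called.

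**Figure D3:**
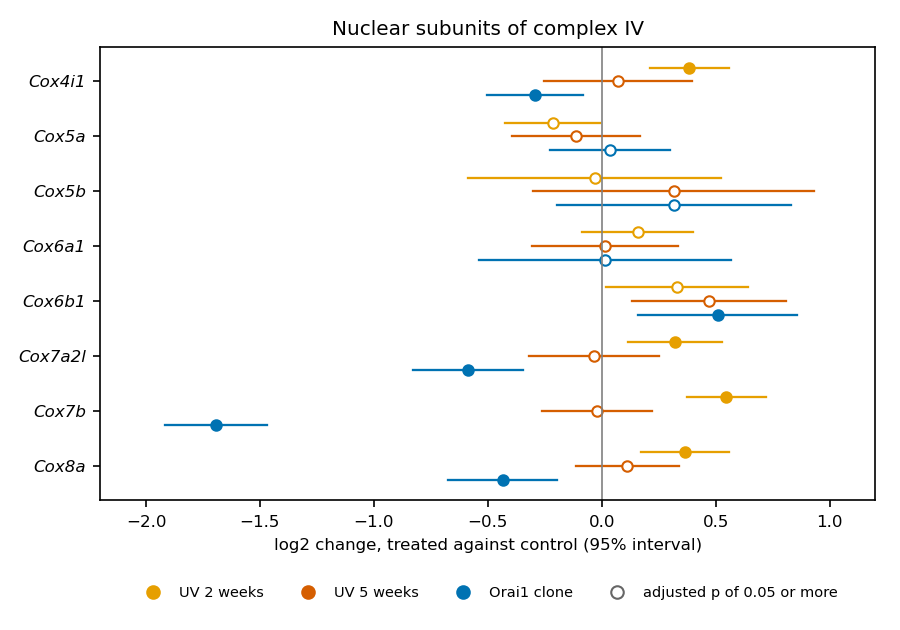
Log2 change of the nuclear subunits of complex IV with their own values, treated against control, with 95% intervals. Tissue isoforms, gene copies and Ndufa4, which was counted in complex I by its symbol, are not drawn. Cox4i1, Cox7a2l, Cox7b and Cox8a have filled points (adjusted p under 0.05) above 0 at 2 weeks and below 0 in the clone, with Cox7b at -1.69 farthest from 0.

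Treated samples were also compared with each other through the difference of their changes, in which the common control cancels. The p-values are those of a two-sided normal test computed from the authors' deposited changes and statistics, not the authors' own. UV for 5 weeks differed from UV for 2 weeks in 4 of 93 members (4.30%), against 3.59% of all rows with their own values in both tables (2.21% higher and 1.38% lower). From the authors' deposited changes, mt-Co1 was higher at 5 weeks (0.92 at 5 weeks and -0.10 at 2 weeks, difference 1.02, SE 0.23, adjusted p = 8.69e-04), as was mt-Nd4 (0.68 at 5 weeks and -0.17 at 2 weeks, difference 0.85, SE 0.23, adjusted p = 0.0136). Computed from the authors' changes in the same way, Cox7b was lower at 5 weeks (-0.020 at 5 weeks and 0.55 at 2 weeks, difference -0.57, SE 0.15, adjusted p = 0.0107), and so was the complex I assembly factor Ndufaf8 (-0.24 at 5 weeks and 0.53 at 2 weeks, difference -0.77, SE 0.23, adjusted p = 0.0315). The median difference was 0.43 over the 13 mitochondrial protein-coding genes and -0.08 over the nuclear members, and -0.02 over all rows. Since both SE contain the control's variance, it enters the test doubly. Its size is unknown, since there are no levels per sample. With the smaller squared SE taken off as an assumed share of the control, 10 members differed (10.8%), against 8.52% of all rows.

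The clone differed from UV for 5 weeks in 6 of 93 members (6.45%, against 5.98% of all rows), and all 6 were lower in the clone. Over all rows, 1.42% were higher and 4.56% lower. At an unadjusted p under 0.05, 0 members were higher and 13 lower (14.0%), against 4.89% of all rows higher and 9.28% lower. By the same test on the authors' changes, Cox7b (difference -1.67, SE 0.17, adjusted p = 3.05e-20) came first, followed by mt-Nd6 (-1.20, SE 0.18, adjusted p = 4.36e-09), mt-Nd5 (-1.03, SE 0.20, adjusted p = 1.97e-05) and mt-Nd2 (-0.90, SE 0.19, adjusted p = 1.01e-04). mt-Co1 and Cox8a were both lower by 0.55 (differences of -0.55). mt-Nd5 and mt-Nd6 were thus called lower in the clone, higher at 5 weeks and different between them, where the difference is computed from these same changes and is no separate evidence.

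The clone differed from UV for 2 weeks in 14 of 93 members (15.1%, against 13.0% of all rows), 4 higher and 10 lower, where 5.12% of all rows were higher and 7.84% lower. The higher ones, from the authors' deposited changes, were Uqcrb (0.83, SE 0.23, adjusted p = 0.00445), Ndufa12 (0.78, SE 0.17, adjusted p = 8.38e-05), Atp5d (0.57) and mt-Cytb (0.40). Among the lower ones, again from the authors' changes, Cox7b had the largest difference (-2.24, SE 0.14, adjusted p = 2.37e-51), followed by Sdhaf1 (-1.14, SE 0.18, adjusted p = 8.23e-09), Cox7a2l (-0.91, SE 0.16, adjusted p = 1.05e-06) and Cox8a (-0.80, SE 0.16, adjusted p = 1.30e-05). Cox4i1 (-0.68), mt-Nd6 (-0.80), Ndufb4c (-0.75), mt-Nd2 (-0.68), mt-Nd5 (-0.67) and Ndufb3 (-0.57) completed the list. Cox4i1, Cox7a2l, Cox7b and Cox8a were thus called lower in the clone, higher at 2 weeks and different between them. The difference is computed from these same changes and is no separate evidence.

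**Figure D4:**
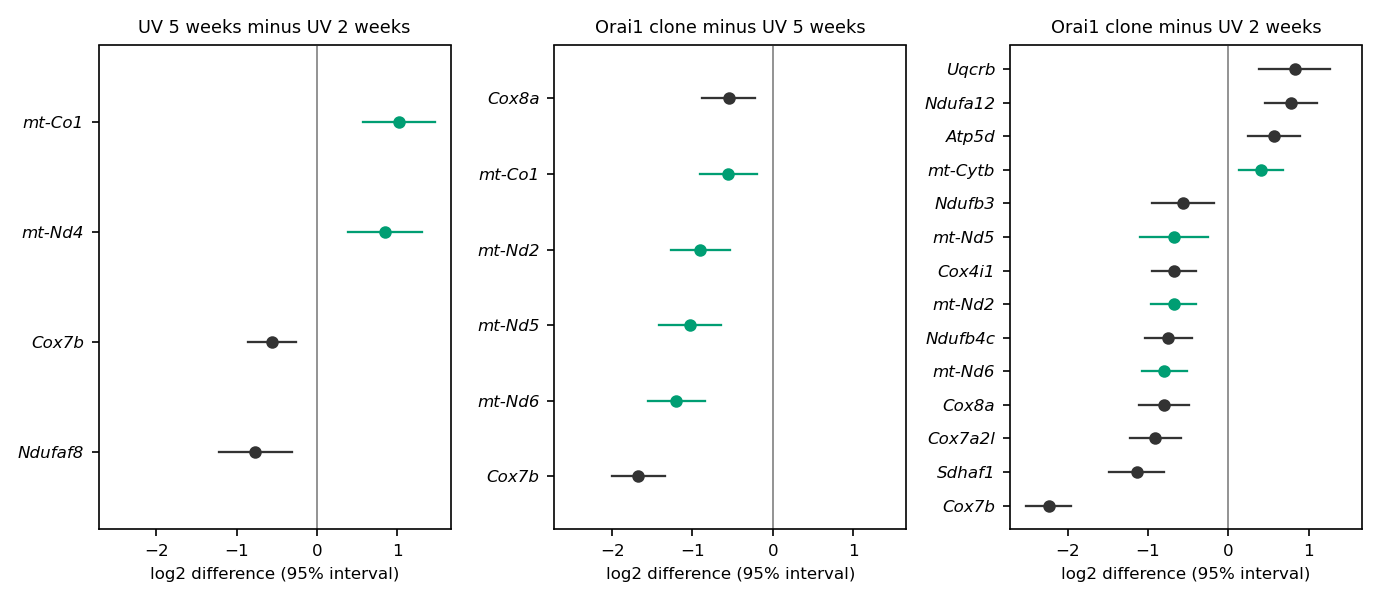
Difference of the log2 changes of the samples named above each panel, with 95% intervals, for every member with an adjusted p under 0.05. Green marks mitochondrially encoded genes. Cox7b is lower than 0 in all 3 panels, at -0.57, -1.67 and -2.24.

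Genes that serve the chain without bearing a member's name were counted beside the members, and their counts are to be read against the same shares of all rows, 8.99% at 2 weeks, 5.51% at 5 weeks and 25.9% in the clone. Cytochrome c (Cycs) fell by 0.42 in the clone, as did Cyc1, cytochrome c1 of complex III (by 0.26), and Higd1a, a factor that binds complex IV (by 0.71), 3 of 4 genes. Higd1a rose by 0.84 at 2 weeks. Among 20 complex IV assembly factors, 3 rose (Pet100 0.77, Coa6 0.61, Coa3 0.53) and 2 fell (Cox15 -0.41, Cox10 -0.37) at 2 weeks, 0 were called at 5 weeks (0 also at an unadjusted p under 0.05), and 2 rose (Oxa1l 0.56, Cox11 0.38) and 2 fell (Cox19 -0.43, Coa5 -0.28) in the clone, a share below that of all rows. Among 11 assembly factors of complexes III and V, 2 rose at 2 weeks (Uqcc2 0.75, Fmc1 0.43), 1 at 5 weeks (the ATP synthase inhibitor Atpif1, 0.77), and 3 rose and 2 fell in the clone. For 11 further complex I assembly factors there were 0 calls at 2 weeks, also at an unadjusted p under 0.05, and 1 fall at 5 weeks and 2 in the clone, Tmem186 in both (-0.75 at 5 weeks and -0.41 in the clone).

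The machinery that copies and transcribes mitochondrial DNA had 0 calls among 14 genes in all 3 comparisons by the same test, with 0, 3 and 1 genes at an unadjusted p under 0.05. Tfam, which packages and transcribes this DNA, had -0.19 at 2 weeks, 0.37 at 5 weeks and 0.12 in the clone. Of 19 genes that process mitochondrial RNA, 0 were called in either UV sample (4 and 1 at an unadjusted p under 0.05), while 5 rose and 2 fell in the clone, among them Hsd17b10 (1.15), a subunit of the mitochondrial RNase P, and Rexo2 (-0.85), an exonuclease of short RNAs. Of 14 regulators of mitochondrial genes, 7 fell in the clone, led by Ppargc1a (-2.93, SE 0.28, adjusted p = 7.73e-24 from the authors' deposited table), followed by the stress factor Atf5 (-1.05) and Myc (-0.87). Ppargc1a had 0.21 at 2 weeks (SE 0.17) and -0.09 at 5 weeks (SE 0.21), neither called. At 5 weeks Atf5 (1.61) and Atf4 (0.78) rose and Myc fell (-1.34), and at 2 weeks Esrra (-0.40) and Atf4 (-0.28) fell.

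Coenzyme Q synthesis had 0 calls among 12 genes at 2 weeks, also at an unadjusted p under 0.05, 1 rise at 5 weeks (Coq10a 0.77) and 3 in the clone (Coq8a 0.96, Coq3 0.84, Coq10a 0.66), a share near that of all rows. Of 10 citrate cycle and pyruvate dehydrogenase genes, 1 fell at 2 weeks (Dld -0.32) and 0 were called at 5 weeks, where 2 had an unadjusted p under 0.05. In the clone 2 rose (Fh1 0.89, Cs 0.47) and 3 fell (Dld -0.49, Idh3a -0.47, Dlat -0.38). Of the pigment-cell markers with their own values, 7 of 10 rose and 0 fell at 2 weeks, 7 of 10 rose and 1 fell at 5 weeks, and 6 of 11 rose and 2 fell in the clone. Their part in the members' changes was not tested.

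Calls depend on precision, and the members were measured more precisely than most genes. Their median SE was 0.17 at 2 weeks, 0.19 at 5 weeks and 0.20 in the clone, against 0.25, 0.30 and 0.25 over all rows with their own values. Among rows with an SE up to 0.3, 28.4% of members and 15.1% of all rows were called at 2 weeks, 14.7% of members and 8.36% of all rows at 5 weeks, and 37.1% of members and 36.6% of all rows in the clone. The SE in the clone was at least 1.5 times that at 2 weeks for 11 of 93 members, a share of 11.8%, against 1.74% of 10077 rows. These were mt-Co2 (6.97 times), mt-Rnr2 (3.49 times), mt-Atp6 (3.44 times), Cox6a1, Atp5e, Atp5h, Atp5o, Ndufa5, Ndufa2, mt-Co3 and Atp5mpl (1.65 to 2.27 times).

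Some members are named as further copies of another member, and how reads were shared between copies was not tested. Ndufb4c had an SE of 0.093 at 2 weeks while Ndufb4 had 0.36, Ndufs6b 0.12 and Ndufs6 0.49, and Ndufs5-ps 0.097 and Ndufs5 0.17, whereas Ndufb4b had an SE of 0.45, above that of Ndufb4. Which copy the calls of these genes belong to is uncertain, in the clone as well, since the counting method is not stated in the labels or headers. With the extra copies left out, 15 of 87 members were called higher and 3 lower at 2 weeks (20.7%, against 8.99% of all rows). The shares were then 11.5% at 5 weeks and 27.3% in the clone, against 5.51% and 25.9% of all rows. The changes of copy and parent at 2 weeks were 0.66 for Ndufb4c and 0.65 for Ndufb4, 0.37 for Ndufs6b and 0.39 for Ndufs6, 0.31 for Ndufs5-ps and 0.40 for Ndufs5, and 0.16 for Ndufb4b. In the clone they were -0.09 for Ndufb4c, -0.35 for Ndufb4b and 0.45 for Ndufb4, 0.56 for Ndufs6b and 1.40 for Ndufs6, and 0.01 for Ndufs5-ps and 0.33 for Ndufs5. mt-Atp8 overlaps mt-Atp6, mt-Nd4l overlaps mt-Nd4, and mt-Nd6 lies on the strand opposite to the other mitochondrial messages, so these values too depend on how reads were assigned.

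**Figure D5:**
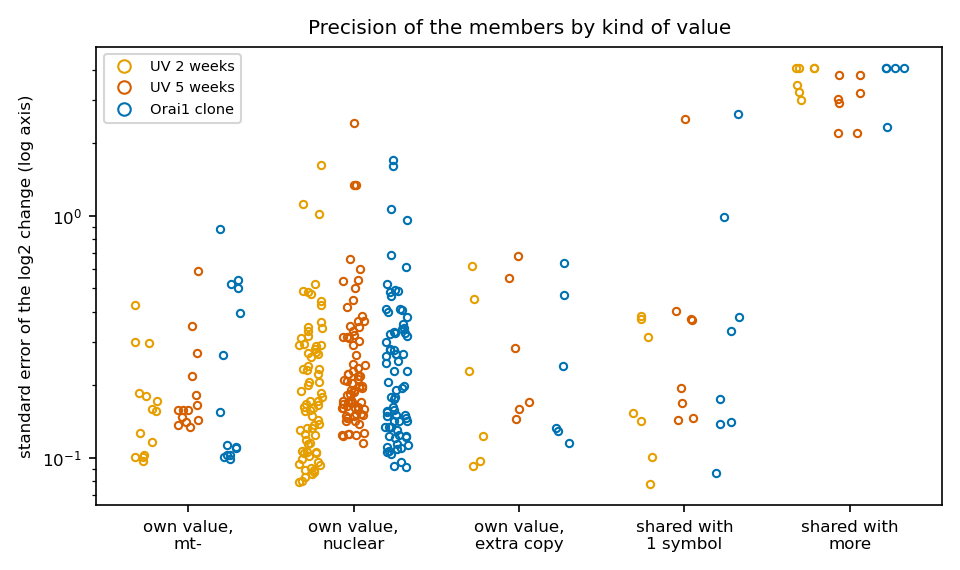
Standard error of each member's log2 change in the 3 tables, on a log axis, by kind of value. Members whose values are repeated by more than 1 other symbol have an SE of 2.2 or more, while most of those with their own values lie below 1.

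Members with repeated values fall into 2 kinds. In all 3 tables, 7 members shared their values with exactly 1 other symbol: Atp5b with Scp2d1, Cox6c with Imp3, Ndufb2 with Atp6v1b1, Ndufs4 with Rsph9, Ndufv1 with Cpeb2, Ndufv3 with Abca15 and mt-Rnr1 with Klhl34. Which gene such a value belongs to cannot be told from the tables. In the authors' deposited tables the row that names Ndufb2 was higher at 2 weeks (0.51, SE 0.10, adjusted p = 3.20e-05), that of Cox6c higher in the clone (0.97, SE 0.38, adjusted p = 0.0493) and that of Ndufs4 lower in the clone (-0.51, SE 0.17, adjusted p = 0.0211). The row of Ndufv1 had 0.74, 0.76 and 0.73 at 2 weeks, at 5 weeks and in the clone, without a call. That of Atp5b, the catalytic subunit of ATP synthase, had 0.04, 0.24 and 0.16.

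The other 10 shared values with several symbols in at least 1 table, and those shared values had SE of 2.2 to 4.08. They were the tissue isoforms and further complex IV subunits described next, the assembly factor Ndufaf5, the complex I subunit Ndufa11 with its copy Ndufa11b, and Ndufa4l2. Cox4i2 shared its values with 498 other symbols at 2 weeks and 743 in the clone, Cox8b with 498 at 2 weeks, and Cox7a1 with 20 at 5 weeks and 743 in the clone. Cox6a2 shared its values with 21 others at 2 weeks, 7 at 5 weeks and 2 in the clone. Among the isoform pairs, the widely expressed forms Cox4i1, Cox6a1, Cox6b1 and Cox8a had their own values, whereas Cox7a2, also widely expressed, shared its values with 336, 35 and 298 other symbols at 2 weeks, at 5 weeks and in the clone. Cox7c shared its values with 13, 10 and 1 others in the same order. Ndufa4, a subunit of complex IV despite its name, had 0.03, 0.13 and 0.15 at 2 weeks, at 5 weeks and in the clone, without a call. By its symbol it was counted in complex I here, and not among the nuclear members of complex IV. Its hypoxia-linked relative Ndufa4l2 had its own values in the clone alone, with an SE of 1.69 and no call (adjusted p = 0.080 from the authors' deposited table).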

How the data were processed

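For B16N RNA-seq the submitters' processing notes name the build GRCm38, and the aligner, counting and test are not stated. The authors deposited 3 mouse tables, whose columns per gene are a p-value, a log2 fold change and a test statistic taken here as a score, per the file headers, and 2 human tables of 420 rows. They hold no counts, so depth is unknown. The deposited mouse log2 changes have the control in the numerator (1357 genes with a row in a single table were all negative), and the sign was turned. The deposited p-value was the two-sided normal p of the score (largest gap 5e-08), so change over score gave the SE. P-values were Benjamini-Hochberg adjusted over 14648, 14821 and 15041 rows. Differences used a two-sided normal test with both SE added in squares, which counts the control's spread in both (scipy 1.17.1, pandas 2.3.3). Named genes were the mitochondrial messages, up to 4 called nuclear members per complex and direction, up to 4 per direction in each difference, isoform pairs, members with repeated values, and up to 3 called genes per other list. Genes beyond this rule were named after their values were seen. The members and lists were chosen with earlier results of these data known. Alternatives changed the fold minimum, threshold, SE limit, centring, repeated values and member roles.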

Additional observations from a re-analysis of the deposited data

Results flagged for a closer look

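In 4 of 93 members (4.30%), the sample after 5 weeks of UV differed from that after 2 weeks, by the test of the difference. That share was near the 3.59% of all rows. UV exposure and time in culture cannot be told apart in these samples. mt-Co1 (difference of log2 changes, 5 weeks minus 2 weeks, 1.02) and mt-Nd4 (0.85) were higher at 5 weeks. Cox7b (-0.57) and Ndufaf8 (-0.77) were lower at 5 weeks. Both changes of each gene use the same control, which cancels in the difference.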

How the results depend on the processing

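With a 1.5-fold minimum, 8 members were called at 2 weeks (7 higher, 1 lower), 3 at 5 weeks (3 higher) and 11 in the clone (6 higher, 5 lower), or 8.60%, 3.23% and 11.7% of members against 2.16% and 4.17% of all rows at 2 and 5 weeks and 1705 of 10659 in the clone. With a 2-fold minimum, the counts were 1 at 2 weeks (1 higher, 0 lower), 0 at 5 weeks (0 higher) and 3 in the clone (2 higher, 1 lower), against 0.394%, 2.04% and 7.79% of all rows. At an adjusted p under 0.01, 14 members were called at 2 weeks (13 higher, 1 lower), or 15.1%, against 5.87% of all rows. Of all rows at 2 weeks, 2.41% were higher and 3.46% lower. At 5 weeks 4 members were called (4 higher), or 4.3%, against 3.34% of all rows. In the clone 19 were called (10 higher, 9 lower), or 20.2%, against 18.3%. At this threshold 1 member differed between 5 weeks and 2 weeks (1 higher, 0 lower), against 2.06% of all rows. Fewer members can pass a stricter rule by construction. The median of complex II in the clone was 0.15 for subunits alone, against -0.17. That of complex IV in the clone was 0.015 with an SE of at most 0.5, against 0.18. The control's share of the variance is unknown, and the smaller squared SE was taken off in its place. Then 10 members differed between 5 weeks and 2 weeks (7 higher) and 11 between the clone and 5 weeks (11 lower). Between the clone and 2 weeks 23 differed (7 higher, 16 lower). These were 10.8%, 11.8% and 24.7% of members against 8.52%, 11.5% and 22.7% of all rows. Uqcrfs1 at 2 weeks lost its call on recentring, and mt-Atp8 at 2 weeks gained a call with an SE of at most 0.5 or 0.3 and with p adjusted over rows with their own values, the last chosen after seeing the data. No single gene reversed under the alternatives run. No paired analysis was possible because the labels list 1 sample per group and the tables hold comparisons only.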

Other observations

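The authors' deposited tables of the human melanoma lines WM983 and UACC257, untreated or exposed to UV for 2 weeks by their labels, held 4 respiratory chain genes each. In the authors' deposited table of WM983, the deposited log2 values were -1.10 for ATP5D, -1.16 for ATP5J2, -1.13 for UQCR10 and -1.02 for UQCRHL. In the authors' deposited table of UACC257 they were -0.11 for ATP5D, -0.42 for ATP5J2, -0.12 for UQCR10 and -0.57 for UQCRHL. Whether a negative value means higher or lower after UV could not be settled from these tables, and 419 of the 420 WM983 rows reach 1 in size, so these rows are a selection by size.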
